A study of Homo sapiens with 24 samples.

Results

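Splicing factor genes were followed in the human leukaemia line MOLT4 (T-cell acute lymphoblastic) under SK-3-91, a pan-kinase degrader per the labels, and under its vehicle, DMSO. The genes were taken by symbol, without regard to their values: every symbol starting with SRSF, SF3A, SF3B, HNRNP, SNRP, PRPF, LSM, U2AF or RBM, with a number after SRSF, LSM and RBM. That gave 95 of the 9822 genes in the deposited count table. The rule goes by symbol, so it also takes in genes that act outside splicing, such as LSM10 and LSM11. They fall into 9 SRSF, 18 HNRNP, 8 SF3A/SF3B, 11 SNRP, 13 PRPF, 12 LSM, 2 U2AF and 22 RBM genes. Another 33 protein-coding symbols of GENCODE release 29 that fit the rule were not analysed here, among them LSM2, RBM5, SNRPN and SRSF10. RNA sequencing gave 24 libraries in 6 groups of 4: SK-3-91 for 1, 4 or 8 h, and DMSO for 1, 4 or 8 h. No source used here gives the dose, and all libraries come from a single cell line. Whether the 4 replicates of a group were separate cultures is not stated in the labels, so the p-values reflect spread between samples that may be technical.

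Introns are removed from pre-mRNA by the spliceosome, which is built from small nuclear RNAs wrapped in proteins. Most of these RNAs carry a ring of Sm proteins (SNRP genes), while U6 carries a ring of LSM proteins. The U2 particle holds the SF3A and SF3B proteins and is brought to the branch point with the help of U2AF. PRPF proteins hold the U4/U6 and U5 particles together and drive the later steps. SR proteins (SRSF genes) and hnRNPs bind exons and introns and shift the choice of splice sites, and SR proteins are moved and switched by phosphorylation, chiefly by kinases of the CLK and SRPK families.

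Counted reads per library averaged 13.612 ± 0.032, 10.78 ± 0.097 and 8.3 ± 0.982 megareads in SK-3-91 at 1, 4 and 8 h, against 14.146 ± 0.126, 14.431 ± 0.117 and 14.241 ± 0.464 megareads in DMSO (SD, n = 4). The shallowest library was replicate 3 of SK-3-91 at 8 h, with 6.863 megareads. Of 22 markers of T-lineage leukaemia 20 were measured, with summed levels from 4832 to 6668 CPM (counts scaled to the library total) over all libraries. No myeloid, erythroid or epithelial marker was in the table. Of the B-cell markers it held CD79A, at 23.3 to 30.5 CPM in SK-3-91 and 6.35 to 10.4 CPM in DMSO at 8 h, and of the fibroblast or endothelial markers PECAM1, at 15.7 to 20.8 CPM in SK-3-91 and 42.7 to 43.7 CPM in DMSO at 8 h. The part of these differences in the results below was not tested. Levels are CPM scaled by the trimmed mean of M-values (TMM), and fold changes are log2 of SK-3-91 over DMSO ± standard error (n = 4 against 4). A gene was called at an adjusted p under 0.05 (edgeR's quasi-likelihood test, Benjamini-Hochberg over all 9822 genes). In bulk RNA, fewer cells and less RNA per cell cannot be told apart, and every fold change is set against the rest of the table.

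Splicing factor genes moved a little at 1 h and widely at 4 and 8 h, more of them upward. At 1 h, 39 of the 95 were called higher (41.1%, against 24.9% of all genes) and 20 lower (21.1%, against 29.4%). At 4 h, 62 were called higher (65.3%, against 42.0% of all genes) and 27 lower (28.4%, against 45.9%). By 8 h, 59 were called higher (62.1%, against 41.3% of all genes) and 27 lower (28.4%, against 48.1%). Each of the 95 genes was called at 1 or more of the times. The medians of their log2 fold changes were 0.08, 0.43 and 0.47 at the 3 times in order, beside 0.01, -0.05 and -0.11 over all genes. These groups were not tested against each other.

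The size of the upward shift rests on the scaling. Without scaling factors, 49 genes were called higher and 36 lower at 4 h, and 45 higher and 43 lower at 8 h, with medians of 0.13 and 0.04, while the median of all genes lay at -0.35 and -0.54. With the scaling of relative log expression (RLE), 47 were called higher and 13 lower at 1 h, so that 78.3% of the calls were upward, against 66.1% with TMM. The distance between the median of the splicing genes and that of all genes came to 0.07, 0.48 and 0.57 at the 3 times in order, under each of the 4 scalings tried. A scaling moves all genes by about 1 constant, so this distance could hardly differ and is no check of the shift. Leaving out any 1 library gave 56 to 59 genes called higher and 27 to 29 called lower at 8 h.

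Large changes were rare at 1 h. At least 2-fold changes among the called genes numbered 0 higher (all genes 0.0509%) and 2 lower (all genes 3.25%) at 1 h. At 4 h there were 11 higher (all genes 9.20%) and 6 lower (all genes 18.2%). At 8 h there were 30 higher (all genes 16.8%) and 10 lower (all genes 23.5%). All 4 libraries of one treatment lay on one side of all 4 of the other in 49 called genes at 1 h (all genes 47.0%), 88 at 4 h (all genes 82.8%) and 81 at 8 h (all genes 83.7%). The highest value at 8 h was that of RBM33 (2.52) and the lowest that of RBM23 (-3.08).

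**Figure D1:**
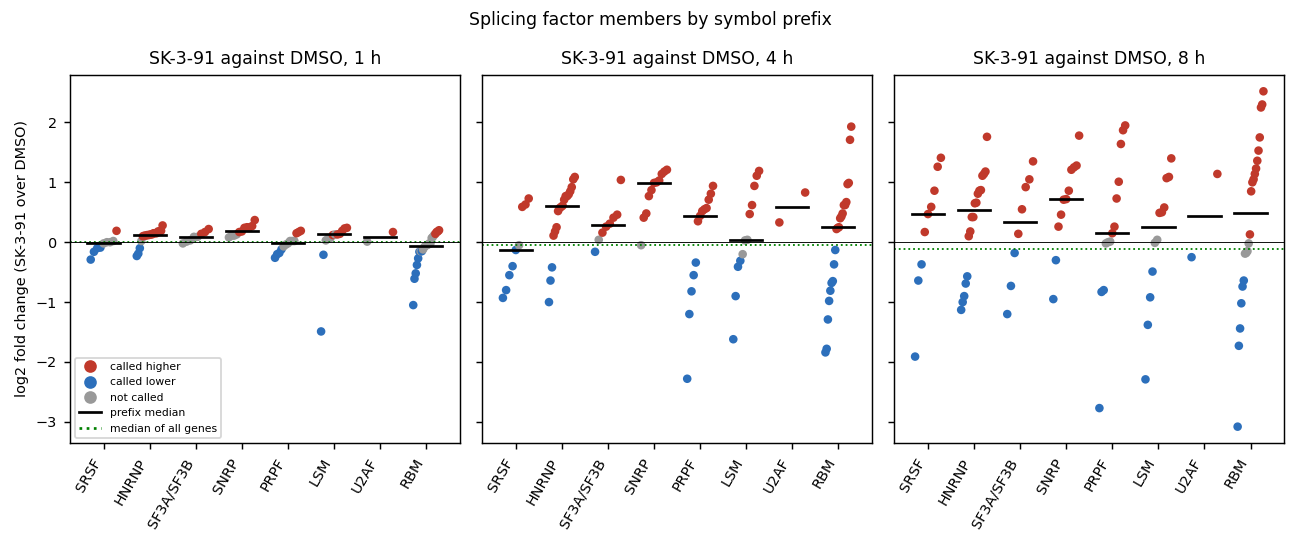
Log2 fold change (SK-3-91 over DMSO, y axis) of each of the 95 splicing factor genes by symbol prefix (x axis) at 1, 4 and 8 h; red and blue points passed an adjusted p of 0.05, grey points did not, black bars are prefix medians and the dotted green line is the median of all genes. The lowest points at 1 h are LSM11 (-1.49) and RBM48 (-1.05), and points spread to between -3.08 and 2.52 at 8 h.

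The direction was kept at all 3 times by 31 genes that were higher throughout (all genes 14.7%) and by 8 that were lower throughout (all genes 16.3%). The 31 hold 11 HNRNP and 7 SNRP genes. Without scaling factors HNRNPUL1, PRPF31, RBM19, SF3A3 and SRSF9 of the 31 were called lower at 8 h. HNRNPH3, HNRNPU and SNRPD3 were then not called at 8 h. The 8 were HNRNPDL, HNRNPF, LSM8, PRPF4, RBM12B, RBM48, RBM7 and SRSF3. In 7 genes the calls at 4 and 8 h had opposite signs (all genes 8.33%): HNRNPAB, HNRNPD, SF3B2, SNRPA and U2AF1 were higher at 4 h and lower at 8 h, and SRSF4 and SRSF6 were lower at 4 h and higher at 8 h. Without scaling factors HNRNPAB, HNRNPD and SF3B2 were called lower at 4 h as well.

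The change of the response between times was tested as a contrast of the same model. From 1 to 4 h it went up in 61 genes (64.2%, against 40.6% of all genes) and down in 25 (26.3%, against 39.9%), 86 in all, against 80.4% of all genes. From 4 to 8 h it went up in 46 (48.4%, against 35.6% of all genes) and down in 31 (32.6%, against 33.0%), 77 in all, against 68.6% of all genes. DMSO alone also moved some of them. From 1 to 4 h in DMSO, 10 were called higher (all genes 16.0%) and 16 lower (all genes 19.1%), and from 4 to 8 h 14 were called higher (all genes 15.9%) and 16 lower (all genes 14.8%).

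**Figure D2:**
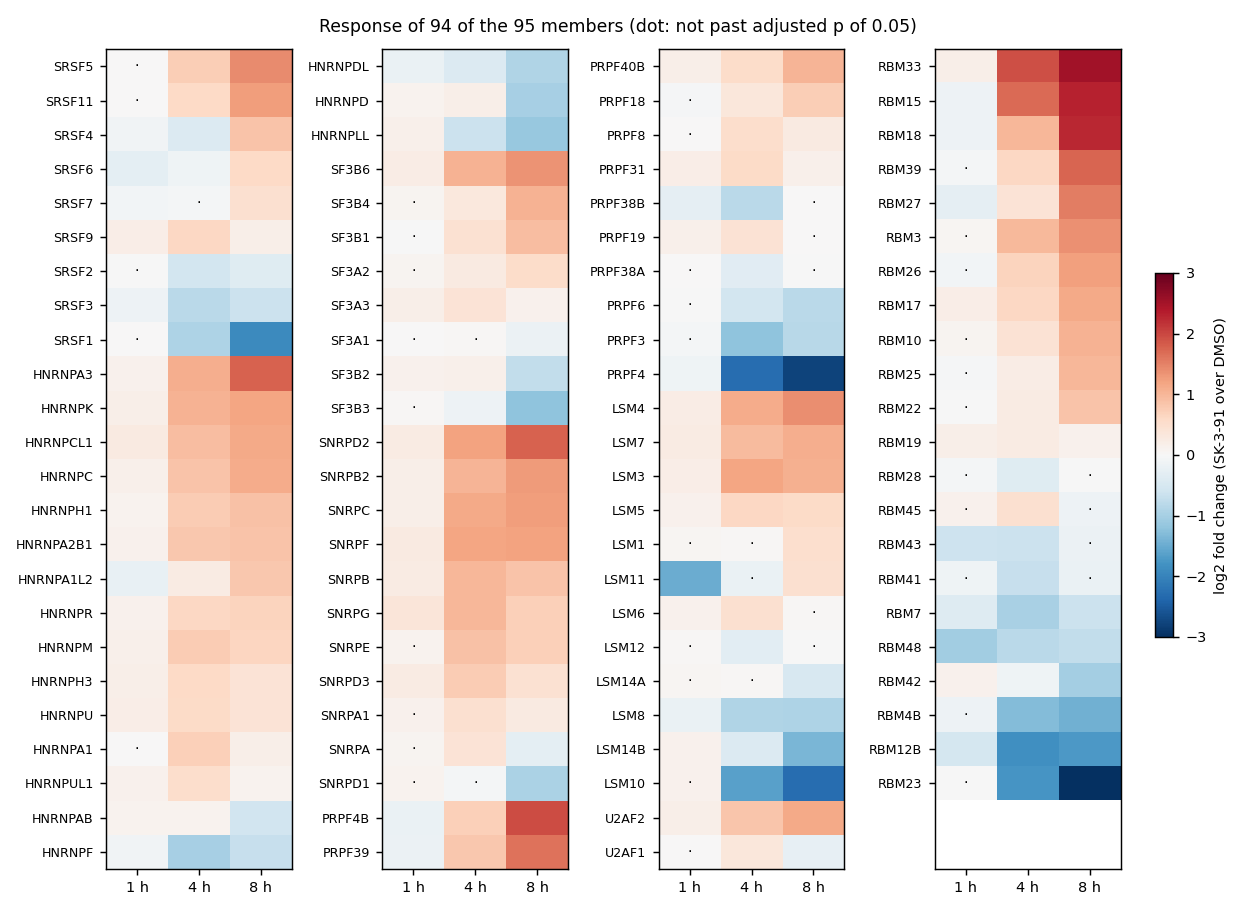
Log2 fold change (SK-3-91 over DMSO, colour, limited to the range from -3 to 3) of 94 of the 95 genes (rows, grouped by prefix and ordered by their value at 8 h) at 1, 4 and 8 h (columns); a dot marks values not past an adjusted p of 0.05. Colours are deeper at 4 and 8 h than at 1 h in rows such as RBM33 and PRPF4, and rows such as HNRNPD, SF3B2, SRSF4 and SRSF6 change colour between 4 and 8 h.

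Most genes of the snRNP core were higher at 4 and 8 h. At 4 h, 10 of the 11 SNRP genes were called higher (90.9%, against 42.0% of all genes) and 0 lower (all genes 45.9%), with a median of 0.99. At 8 h, 9 were higher (81.8%, against 41.3%) and 2 lower (18.2%, against 48.1%), with a median of 0.72. Without scaling factors the counts at 8 h were 7 higher and 2 lower. Summed over the SNRP genes, SK-3-91 libraries held 3683, 3476, 3801 and 3257 CPM at 8 h, against 1843, 1879, 1873 and 2028 CPM in DMSO libraries. Part of this gap comes from the TMM factors, which were lower in SK-3-91. SNRPB2 (1.28 ± 0.048) and SNRPC (1.25 ± 0.044), proteins of the U2 and U1 particles, were at 8 h more than 2-fold higher.

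Of the 7 Sm ring genes, 6 were called higher at both 4 and 8 h (85.7%, against 42.0% and 41.3% of all genes), and the exception was SNRPD1. SNRPD2, which encodes the partner of SmD1 in the ring, had 689, 629, 716 and 619.6 CPM in SK-3-91 libraries at 8 h, against 182, 183, 194 and 214 CPM in DMSO libraries. Its treated libraries lay far above all DMSO libraries, by 1.78 ± 0.056 on the log2 scale (edgeR adjusted p = 2.0e-28). SNRPD1, which encodes SmD1, had 38.2, 33.0, 29 and 31.3 CPM in SK-3-91 libraries at 8 h, against 64.6, 64.7, 62.3 and 63.4 CPM in DMSO libraries. The groups overlapped at 1 and 4 h (0.11 ± 0.051 and -0.05 ± 0.054, adjusted p = 0.065 and 0.38 by edgeR) and were apart at 8 h (-0.95 ± 0.064, edgeR adjusted p = 4.0e-17). The other Sm genes ranged from 0.46 (SNRPD3) to 1.21 (SNRPF) at 8 h, and without scaling factors 5 of the 7 were still called higher.

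Among the factors that load Sm proteins onto RNA, more genes were lower than higher. The SMN complex closes the ring, and the PRMT5 complex methylates and holds Sm proteins beforehand. From the list of snRNP assembly genes, 20 of 22 were measured, and at 8 h 6 were called higher (30%, against 41.3% of all genes) and 13 lower (65.0%, against 48.1%), with a median of -0.74, beside 4 higher and 7 lower at 1 h. GEMIN6, a core SMN complex subunit, had 1.26, 1.93, 2.95 and 1.45 CPM in SK-3-91 libraries at 8 h, against 22.2, 21.9, 23.5 and 24.8 CPM in DMSO libraries. Its highest treated library stayed below its lowest DMSO library by a wide margin (-3.65 ± 0.16, edgeR adjusted p = 4.4e-23).

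GEMIN4 fell by 3.09 on the log2 scale at 8 h, and GEMIN7 fell by 2.86. DDX20 (also Gemin3), the helicase of the complex, was already lower at 1 h, with 38.7, 40.3, 40.7 and 42.3 CPM in SK-3-91 libraries, against 92.1, 91.4, 84.1 and 88.9 CPM in DMSO libraries (-1.14 ± 0.05, edgeR adjusted p = 8.0e-22). All 7 measured genes among the Gemins and DDX20 were called lower at 4 and 8 h (all genes 45.9% and 48.1%). With RLE factors 6 were called lower at 4 h and 7 at 8 h. The count without scaling factors was the same, but that setting moves fold changes downward and so is no check of a decrease. STRAP, another subunit, was higher (0.81 at 8 h), as was CLNS1A of the PRMT5 complex (0.64). PRMT5 itself was lower at 8 h (-2.24), but 27.1% of its exon bases overlap exons on the opposite strand, so its counts are uncertain. These 12 genes of the SMN and PRMT5 complexes were picked out of the assembly list with their values known.

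**Figure D3:**
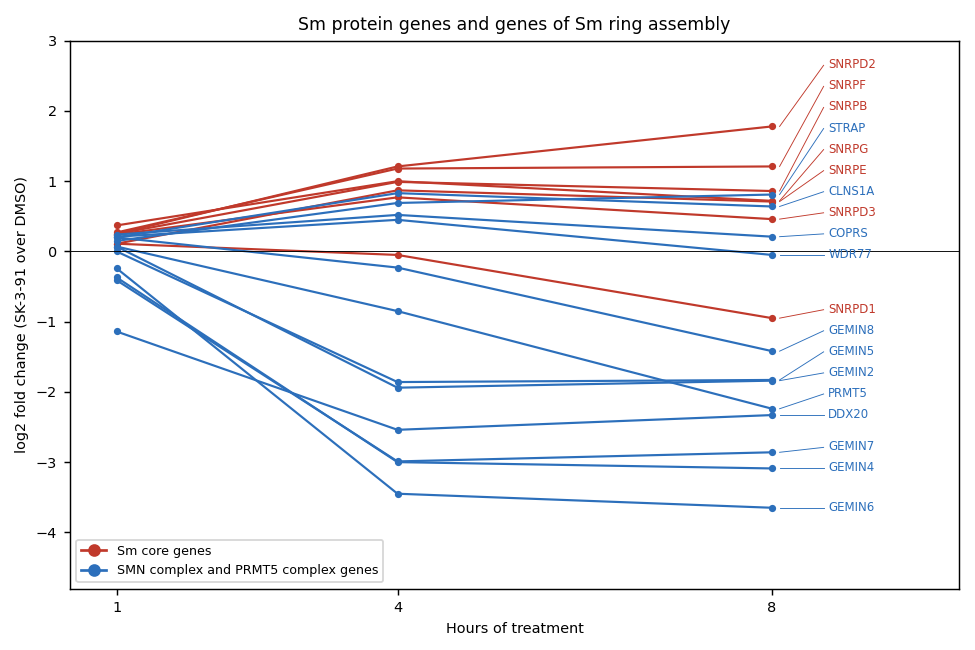
Log2 fold change (SK-3-91 over DMSO, y axis) after 1, 4 and 8 h of treatment (x axis) for the 7 Sm ring genes (red) and 12 genes of the SMN and PRMT5 complexes (blue); each line is 1 gene. At 8 h the Sm genes other than SNRPD1 lie between 0.46 and 1.78, and the Gemins and DDX20 between -3.65 and -1.42.

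The LSM genes held both directions, also within a ring. Of 6 measured genes of the U6 ring (LSM3 to LSM8, with LSM2 not analysed here), 5 were called higher and 1 lower at 1 and 4 h. These were 83.3% higher (against 24.9% of all genes at 1 h and 42.0% at 4 h) and 16.7% lower (against 29.4% and 45.9%). At 8 h 4 were higher (66.7%, against 41.3% of all genes) and 1 lower (16.7%, against 48.1%). Over all 12 LSM genes, 6 were called higher at 1 h (50.0%, against 24.9% of all genes), but 3 without replicate 3 of DMSO. At 4 h 5 were higher (41.7%, against 42.0%) and 4 lower (33.3%, against 45.9%). At 8 h 6 were higher (50.0%, against 41.3%) and 4 lower (33.3%, against 48.1%). The LSM medians at 4 and 8 h (0.03 and 0.26) changed sign without scaling factors. Without scaling factors the counts of the U6 ring were 3 and 1 at 1 h, 5 and 1 at 4 h, and 4 and 2 at 8 h. The lower one was LSM8, the subunit that marks the nuclear U6 ring and is replaced by LSM1 in the cytoplasmic decay ring. LSM4 had 932, 925, 964 and 862 CPM in SK-3-91 libraries at 8 h, against 339.6, 349, 346 and 356 CPM in DMSO libraries (1.4 ± 0.039, edgeR adjusted p = 3.3e-30). LSM8 had 48.6, 47.2, 47.4 and 56.1 CPM in SK-3-91 libraries at 8 h, against 98.4, 91.6, 100 and 88.0 CPM in DMSO libraries (-0.92 ± 0.059, edgeR adjusted p = 6.2e-18). The treated and DMSO libraries did not overlap in either gene.

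LSM10 and LSM11 take the places of SmD1 and SmD2 in the U7 particle, which processes histone mRNA ends, and they moved at different times. LSM10 had 8.43, 8.83, 7.38 and 5.51 CPM in SK-3-91 libraries at 8 h, against 36.6, 37.4, 35.2 and 39.4 CPM in DMSO libraries (-2.29 ± 0.11, edgeR adjusted p = 9.2e-23). It was not called at 1 h (0.13 ± 0.068). LSM11 had 3.66, 5.17, 5.46 and 3.71 CPM in SK-3-91 libraries at 1 h, against 12.5, 11.5, 12.1 and 14.5 CPM in DMSO libraries. That was the largest decrease of any of the 95 genes at that time (-1.49 ± 0.14, edgeR adjusted p = 2.4e-12). Its groups overlapped at 4 h (-0.20 ± 0.13) and at 8 h, when it was called higher (0.49 ± 0.14, edgeR adjusted p = 0.0012) but not without scaling factors (0.06, edgeR adjusted p = 0.67).

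Promoter letters are shown for genes of both directions. The shares of motifs in the 2 directions were not tested. RefSeq promoter windows of GRCh38.p14 matched 81 of the 95 genes, and the 250 bases before the start were searched on both strands. The ETS core CCGGAAG was found in 27 of the 81 (33.3%), including 7 of 10 SNRP promoters, against 8.82% of all 27305 promoters and 17.6% of the 8103 of genes tested. It was in 33.3% of the genes called higher at 8 h and 35% of those called lower, nearly equal shares. The core letters of the cAMP response element (CRE), TGACG, were found in 32 of the 81 (39.5%), against 21.7% of all promoters and 31.5% of those of genes tested. It was in 14 of 54 genes called higher at 8 h (25.9%) and in 14 of 20 called lower (70.0%), while over all genes tested the shares were 31.7% of those called higher and 31.4% of those called lower. A match is a description of letters and not a binding site. ETS and CRE matches do not overlap each other in the windows below, which give the 150 bases before the start, 5′ to 3′ on the gene's strand, with ETS cores and CRE cores in capitals.
SNRPA1 (chr15:101295249-101295398, minus strand): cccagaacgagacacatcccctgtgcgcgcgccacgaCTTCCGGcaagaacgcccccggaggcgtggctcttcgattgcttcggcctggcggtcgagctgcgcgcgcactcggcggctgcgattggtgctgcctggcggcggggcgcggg
SNRPD2 (chr19:45692317-45692466, minus strand): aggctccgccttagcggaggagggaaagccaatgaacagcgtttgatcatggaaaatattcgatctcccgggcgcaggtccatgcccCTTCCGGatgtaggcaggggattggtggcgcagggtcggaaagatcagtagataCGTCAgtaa
LSM10 (chr1:36397909-36398058, minus strand): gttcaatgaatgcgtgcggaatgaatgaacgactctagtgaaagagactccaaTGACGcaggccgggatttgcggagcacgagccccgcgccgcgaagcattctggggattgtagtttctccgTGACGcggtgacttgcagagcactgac
HNRNPD (chr4:82373992-82374141, minus strand): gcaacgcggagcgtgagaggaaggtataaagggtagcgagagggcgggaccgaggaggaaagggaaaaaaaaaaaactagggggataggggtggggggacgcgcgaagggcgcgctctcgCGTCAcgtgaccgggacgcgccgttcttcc
SRSF3 (chr6:36594212-36594361, plus strand): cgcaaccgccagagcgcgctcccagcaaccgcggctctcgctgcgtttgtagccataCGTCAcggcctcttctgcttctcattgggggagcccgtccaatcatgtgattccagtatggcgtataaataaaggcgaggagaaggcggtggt
RBM42 (chr19:35628886-35629035, plus strand): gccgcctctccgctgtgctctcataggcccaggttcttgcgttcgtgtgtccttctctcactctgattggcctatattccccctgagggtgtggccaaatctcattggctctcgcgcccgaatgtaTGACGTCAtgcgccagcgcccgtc

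SNRPD2 and SNRPA1 carry 1 ETS core each. SNRPD2 was higher at 8 h, while the call of SNRPA1 was weak, with overlapping groups (0.26 ± 0.1) and a value of -0.17 without scaling factors. SNRPD2 also has a CRE core 9 bases before its start. LSM10, HNRNPD, SRSF3 and RBM42, all lower at 8 h, carry CRE cores. In RBM42 the letters on both strands join in a full palindromic element. HNRNPD also has 1 ETS core among the searched bases, outside the letters shown. CRE cores were found in 14 of 54 genes called higher at 8 h, such as HNRNPA3, SRSF5 and RBM18. They were in 14 of 20 genes called lower. The windows shown are examples and do not reflect these shares. Of the other motifs searched, the CCAAT box was in 45.7% (35.8% of genes tested), the TATA box TATAAA in 9.88% (4.53%) and the GC box GGGCGG in 59.3% (68.9%).

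Branch point recognition held both directions. Among the SF3A and SF3B genes, 6 were called higher (75.0%, against 42.0% of all genes) and 1 lower (12.5%, against 45.9%) at 4 h. At 8 h 5 were higher (62.5%, against 41.3%) and 3 lower (37.5%, against 48.1%). Without scaling factors the counts were 3 and 3 at 4 h and 4 and 4 at 8 h. SF3B6, whose product touches the branch point adenosine, had 217, 189, 206 and 180.3 CPM in SK-3-91 libraries at 8 h, against 71.4, 79.4, 78.6 and 80.9 CPM in DMSO libraries (1.35 ± 0.052, edgeR adjusted p = 2.0e-25). SF3B1, the scaffold of the complex and a gene mutated in blood cancers, was higher by 0.92 ± 0.043 at 8 h (edgeR adjusted p = 1.8e-22). SF3B3 had 226, 224, 224 and 239 CPM in SK-3-91 libraries at 8 h, against 526, 512, 530.2 and 536 CPM in DMSO libraries, a decrease (-1.2 ± 0.038, edgeR adjusted p = 1.8e-28) that was small at 4 h (-0.16 ± 0.036). In both genes the treated and DMSO libraries were fully separate at 8 h, on opposite sides.

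The large and small subunits of U2AF, which read the polypyrimidine tract and the AG of the 3′ splice site, parted at 8 h. U2AF2 had 1262, 1273, 1299 and 1303 CPM in SK-3-91 libraries at 8 h, against 586, 572, 581 and 599 CPM in DMSO libraries (1.14 ± 0.033, edgeR adjusted p = 1.1e-29), and it was higher at all 3 times. U2AF1 was higher at 4 h (0.33 ± 0.038) and lower at 8 h (-0.25 ± 0.04, edgeR adjusted p = 2.7e-07). Its counts are uncertain, since 96.4% of its 32-base words occur in other gene entries, chiefly the near-identical copy U2AF1L5.

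Of the 13 PRPF genes, 3 were called higher (23.1%, against 24.9% of all genes) and 4 lower (30.8%, against 29.4%) at 1 h. At 4 h 8 were higher (61.5%, against 42.0%) and 5 lower (38.5%, against 45.9%). At 8 h 7 were higher (53.8%, against 41.3%) and 3 lower (23.1%, against 48.1%). Their median at 8 h (0.15) changed sign without scaling factors. Genes of the U4/U6.U5 tri-snRNP included the deepest decrease among the PRPF genes. PRPF4, a U4/U6 protein that binds PRPF3, had 17.1, 19.3, 15.3 and 16.8 CPM in SK-3-91 libraries at 8 h, against 119, 117, 121 and 116 CPM in DMSO libraries. All treated libraries lay far below all DMSO libraries (-2.77 ± 0.063, edgeR adjusted p = 4.0e-33), and the groups were already apart at 4 h (-2.28 ± 0.053). PRPF3 was lower at 4 h (-1.2 ± 0.053) and at 8 h (-0.83 ± 0.056), and PRPF6, the bridge between U5 and U4/U6, was lower as well (-0.80 ± 0.043 at 8 h). PRPF8, the centre of the active spliceosome, was higher by 0.26 ± 0.038 at 8 h, and PRPF31 by 0.15 ± 0.042, but without scaling factors both were called lower at that time. PRPF31 also shares 32% of its exon bases with exons on the opposite strand.

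The kinase gene PRPF4B and the U1-related PRPF39 were lower at 1 h and higher at 4 and 8 h. PRPF4B, a kinase of the tri-snRNP and B complex, had 784, 757, 620.1 and 886 CPM in SK-3-91 libraries at 8 h, against 214, 193, 198 and 185 CPM in DMSO libraries (1.95 ± 0.064, edgeR adjusted p = 1.1e-27). At 1 h it had been lower, with 201, 205, 192 and 199 CPM in SK-3-91 libraries, against 225, 223, 243 and 228 CPM in DMSO libraries (-0.20 ± 0.064, edgeR adjusted p = 0.0067), and at 4 h it stood at 0.71 ± 0.064. PRPF39, related to a yeast U1 protein, stood at -0.18 ± 0.056 at 1 h, 0.81 ± 0.054 at 4 h and 1.64 ± 0.054 at 8 h. PRPF19, the ligase that gives its complex its name, was higher at 4 h (0.44 ± 0.039) and at 8 h was not called (edgeR adjusted p = 0.96). PRPF38B was lower at 1 and 4 h (-0.26 and -0.82) and at 8 h stood at 0.01 ± 0.048.

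SR protein genes changed in both directions, and the balance moved with time. Of the 9, 1 was called higher (11.1%, against 24.9% of all genes) and 4 lower (44.4%, against 29.4%) at 1 h. At 4 h 3 were higher (33.3%, against 42.0%) and 5 lower (55.6%, against 45.9%). At 8 h 6 were higher (66.7%, against 41.3%) and 3 lower (33.3%, against 48.1%). The 4 lower at 1 h became 2 without replicate 1 of SK-3-91. Without scaling factors the count at 8 h was 4 and 4. Summed over the SRSF genes, SK-3-91 libraries held 3584, 3615, 3758 and 3724 CPM at 4 h, below the 4515, 4532, 4517 and 4466 CPM of DMSO libraries. At 8 h the sums overlapped, with a mean of 4252 ± 154 CPM in SK-3-91 and 4202 ± 58.9 CPM in DMSO (SD, n = 4). This overlap holds for TMM-scaled levels, since the factors raise SK-3-91 levels relative to DMSO at that time.

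SRSF1, a founding SR protein and an oncogene in several tissues, had 279, 298, 279.6 and 325 CPM in SK-3-91 libraries at 8 h, against 1124, 1121, 1141 and 1045 CPM in DMSO libraries. The 1 h groups overlapped (0.00 ± 0.04), the 4 h groups did not (-0.93 ± 0.041), and the decrease at 8 h was the largest among SR protein genes (-1.91 ± 0.044, edgeR adjusted p = 4.4e-33). Of its 32-base words 52.9% occur in other gene entries, chiefly the annotated entry AC015813.2, so its counts are uncertain. SRSF3, the smallest SR protein, was lower at each time (-0.16 ± 0.042, -0.80 ± 0.043 and -0.64 ± 0.044).

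SRSF5 had 494, 493, 464 and 509 CPM in SK-3-91 libraries at 8 h, against 205, 185, 166 and 179 CPM in DMSO libraries (1.41 ± 0.045, edgeR adjusted p = 3.2e-28). At 4 h it had 269, 278, 281 and 286 CPM in SK-3-91 libraries, against 175, 164, 161 and 173 CPM in DMSO libraries (0.73 ± 0.045). In TMM-scaled levels the treated libraries at 4 h lay near both 1 h groups, while DMSO itself was lower at 4 h than at 1 h (-0.76 ± 0.044, edgeR adjusted p = 9.3e-17). The likeness to the 1 h groups rests on the scaling. TMM factors were 0.8842 to 0.9014 in SK-3-91 at 4 h and 1.0654 to 1.0962 in the 1 h groups. SRSF4 and SRSF6 turned from lower to higher: SRSF4 stood at -0.40 ± 0.042 at 4 h and 0.86 ± 0.041 at 8 h, and SRSF6 at -0.29 ± 0.042 at 1 h and 0.59 ± 0.043 at 8 h. SRSF6 also moved in DMSO between 1 and 4 h (-0.59 ± 0.042). SRSF11 was higher by 1.26 ± 0.039 at 8 h.

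Most hnRNP genes were higher from the first time on. At 1 h 14 of 18 were called higher (77.8%, against 24.9% of all genes) and 3 lower (16.7%, against 29.4%), or 1 lower without replicate 4 of DMSO. At 4 h 15 were higher (83.3%, against 42.0%) and 3 lower (16.7%, against 45.9%). At 8 h 13 were higher (72.2%, against 41.3%) and 5 lower (27.8%, against 48.1%), which became 9 and 7 without scaling factors. HNRNPA3, a member of the A/B group, had 843, 789, 763 and 866 CPM in SK-3-91 libraries at 8 h, against 254, 238, 239 and 229 CPM in DMSO libraries (1.76 ± 0.04, edgeR adjusted p = 2.5e-33). HNRNPK, which binds C-rich RNA, was higher at all times (0.18 ± 0.038, 1.05 ± 0.038 and 1.18 ± 0.039), and so were HNRNPC, HNRNPA2B1 and HNRNPU (1.11, 0.86 and 0.42 at 8 h). HNRNPU stood at -0.01 at 8 h without scaling factors. HNRNPA1 was higher at 4 h (0.71 ± 0.046) and its groups overlapped at 8 h (0.18 ± 0.047, or -0.25 without scaling factors), and 24.9% of its words are shared with other gene entries, chiefly the pseudogene entry HNRNPA1P48. HNRNPCL1 and HNRNPA1L2, also counted among the 18, share 73.4% and 75.4% of their words with other entries, so their counts are uncertain.

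HNRNPD, also AUF1, a protein of AU-rich mRNA decay, had 449, 444, 492 and 483 CPM in SK-3-91 libraries at 8 h, against 926, 926, 948 and 924 CPM in DMSO libraries. That was a decrease (-1.0 ± 0.039, edgeR adjusted p = 4.1e-25) after slightly higher levels at 1 and 4 h (0.11 ± 0.038 and 0.18 ± 0.038). HNRNPF, which binds G-tracts, had 377, 363, 359 and 378 CPM in SK-3-91 libraries at 4 h, against 726, 735, 758 and 732 CPM in DMSO libraries (-1.0 ± 0.038, edgeR adjusted p = 2.4e-25), and at 8 h it was lower by less (-0.69 ± 0.038). HNRNPLL, a regulator of CD45 splicing in T cells, was higher at 1 h (0.15 ± 0.045) and lower at 8 h (-1.13 ± 0.057).

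**Figure D4:**
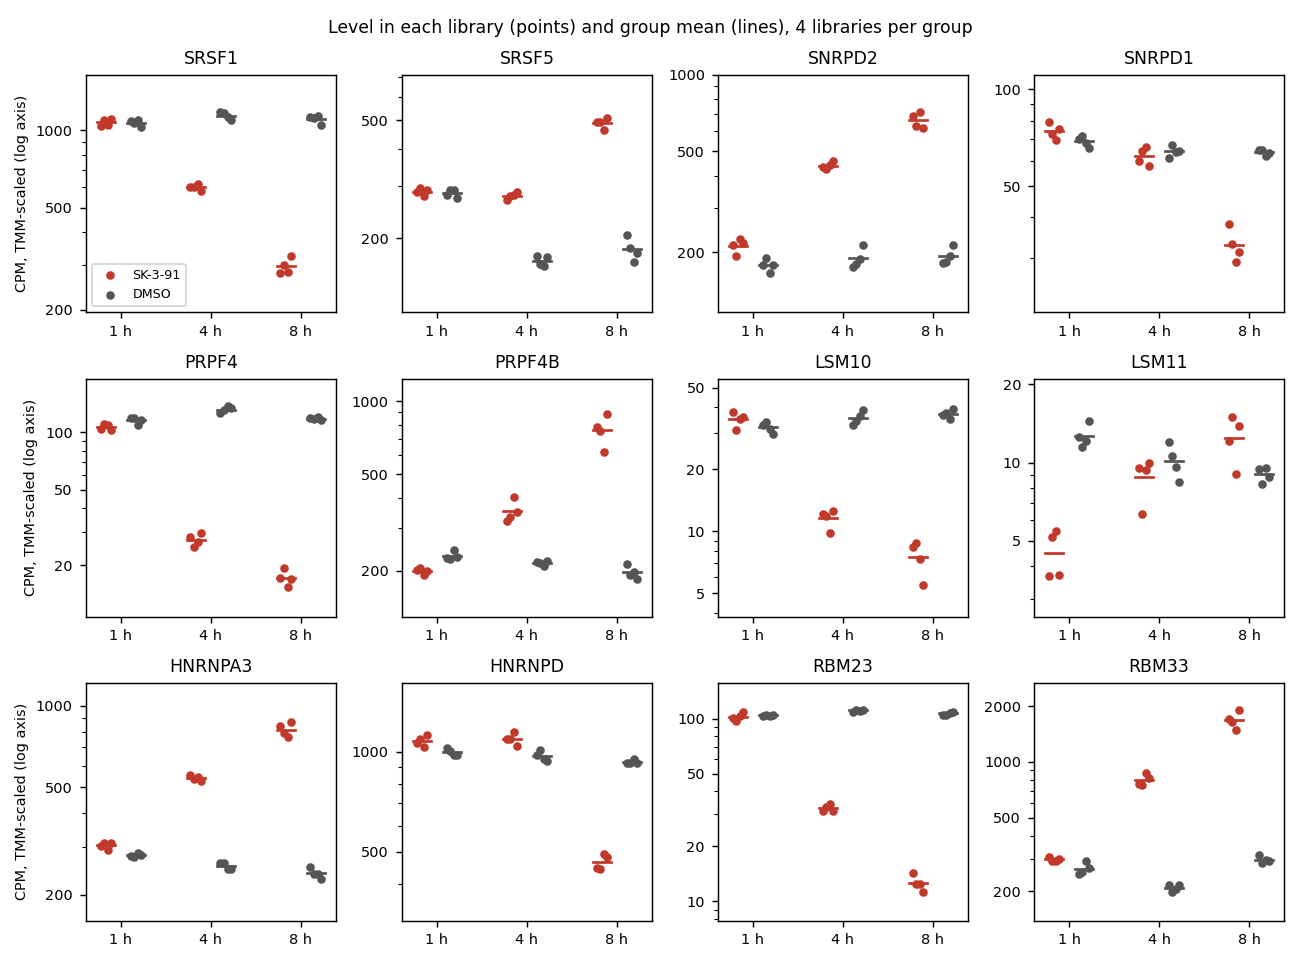
CPM in each library (points, log axis, each panel with its own range) and group means (lines) of 12 splicing factor genes at 1, 4 and 8 h, SK-3-91 in red and DMSO in grey, 4 libraries per group. SRSF1, PRPF4, LSM10 and RBM23 are lower in SK-3-91 from 4 h on, SNRPD1 and HNRNPD at 8 h, and LSM11 at 1 h.

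The RBM genes, a set of RNA-binding proteins named by domain and not by complex, are the largest prefix and held both the highest and the lowest value at 8 h. Their calls were 4 higher (18.2%, against 24.9% of all genes) and 7 lower (31.8%, against 29.4%) at 1 h. At 4 h they were 13 higher (59.1%, against 42.0%) and 9 lower (40.9%, against 45.9%). At 8 h they were 12 higher (54.5%, against 41.3%) and 6 lower (27.3%, against 48.1%). Without scaling factors they were 9 and 9 at 4 h and 11 and 11 at 8 h. Their summed TMM-scaled level was 6232, 6004, 5648 and 6483 CPM in SK-3-91 libraries at 8 h, against 2494, 2429, 2456 and 2435 CPM in DMSO libraries. Here too the scaling widens the gap. RBM33 had the largest increase of the 95 genes, with 1715, 1652, 1491 and 1909 CPM in SK-3-91 libraries at 8 h, against 314, 283, 295 and 290 CPM in DMSO libraries (2.52 ± 0.056, edgeR adjusted p = 2.3e-33). In DMSO alone it also moved, by -0.34 ± 0.056 from 1 to 4 h and 0.50 ± 0.056 from 4 to 8 h.

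RBM15, an adaptor of the m6A methyltransferase complex, had 122, 135, 126 and 143 CPM in SK-3-91 libraries at 8 h, against 28.9, 27.1, 26.7 and 24.0 CPM in DMSO libraries (2.30 ± 0.058, edgeR adjusted p = 1.1e-31). It had been slightly lower at 1 h, with overlapping groups (-0.16 ± 0.062, edgeR adjusted p = 0.032). RBM39 and RBM23 are paralogues and moved apart. RBM39, a partner of U2AF2, had 1017, 952, 838 and 1082 CPM in SK-3-91 libraries at 8 h, against 301, 289, 279 and 284 CPM in DMSO libraries (1.75 ± 0.052, edgeR adjusted p = 1.9e-29). RBM23 had 14.3, 12.4, 12.4 and 11.2 CPM in SK-3-91 libraries at 8 h, against 105, 105, 108 and 109 CPM in DMSO libraries, the largest decrease of the 95 (-3.08 ± 0.064, edgeR adjusted p = 1.7e-34). It was not called at 1 h (-0.02 ± 0.041).

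RBM48, a protein of the minor spliceosome, had the largest decrease of the RBM genes at 1 h, with 18.4, 19.8, 20.9 and 19.2 CPM in SK-3-91 libraries at 1 h, against 41, 41.7, 39.7 and 40.2 CPM in DMSO libraries (-1.05 ± 0.063, edgeR adjusted p = 9.1e-18). It remained lower at 8 h (-0.74 ± 0.078). RBM43 (-0.61 ± 0.08) and RBM12B (-0.52 ± 0.072) were the next lowest of the RBM genes at 1 h. RBM12B was also lower later (-1.84 and -1.73), with 38.8% of its exon bases under exons of the opposite strand. RBM18 (2.25 ± 0.053), the cold-induced RBM3 (1.36 ± 0.039), RBM26 (1.23 ± 0.047), RBM17 (1.14 ± 0.044), RBM10 (1.05 ± 0.043) and RBM25 (1.00 ± 0.044) were higher at 8 h.

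Per kilobase of the deposited gene width, the 95 genes spanned from 3.52 (PRPF40B) to 502 (HNRNPA2B1) CPM per kilobase in DMSO at 1 h. HNRNPA2B1, SRSF2 (397), HNRNPD (334) and HNRNPAB (303) led that order of levels, and among these 4 the replicate values of neighbours did not overlap. Further down, neighbours such as HNRNPM and SNRPB (207 each) overlapped. SRSF2 is uncertain, since 36.7% of its exon bases lie under exons of the opposite strand. Together the 95 genes held 38992, 38275, 39681 and 39339 CPM in SK-3-91 libraries at 8 h, against 27106, 26542, 27055 and 26492 CPM in DMSO libraries. These sums are TMM-scaled, with factors from 0.7901 to 0.8137 in SK-3-91 and from 1.0781 to 1.0861 in DMSO at 8 h. The lower factors raise the SK-3-91 sums relative to DMSO, so the size of the gap rests on the scaling. Across the 95 genes, the log2 fold changes and the gene widths had Spearman's rho of -0.38, -0.15 and 0.02 at the 3 times in order, beside -0.26, -0.07 and 0.06 across all genes; the genes share libraries and are not independent replicates. Of the 95, 14 share at least 20% of their words or exon bases with other entries or the opposite strand. Among the other 81 the calls at 8 h were 50 higher (61.7%, against 41.3% of all genes) and 23 lower (28.4%, against 48.1%).

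Kinases that act on SR proteins were listed together with phosphatase genes (among them PPP1CA and PPP1CC). Of 13 measured genes of that list, 3 were called higher (23.1%, against 24.9% of all genes) and 7 lower (53.8%, against 29.4%) at 1 h, and 7 higher (53.8%, against 41.3%) and 4 lower (30.8%, against 48.1%) at 8 h, which became 4 and 9 without scaling factors. CLK4 was lower at 1 h, with a mean of 10.6 CPM in SK-3-91 and 21.1 CPM in DMSO (-1.0 ± 0.082, edgeR adjusted p = 1.5e-13). DYRK1A, a kinase that phosphorylates splicing factors, was lower at 1 h (-0.70 ± 0.044) and higher at 8 h, with a mean of 695 CPM in SK-3-91 and 171 CPM in DMSO (2.03 ± 0.044, edgeR adjusted p = 6.3e-34). DYRK3 was lower at 4 and 8 h (-2.06 ± 0.08 and -2.07 ± 0.093).

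Other regulators of splice site choice were mostly higher at the later times. Of 47 measured, 31 were called higher (66.0%, against 42.0% of all genes) and 11 lower (23.4%, against 45.9%) at 4 h. At 8 h 38 were higher (80.9%, against 41.3%) and 8 lower (17.0%, against 48.1%), with a median of 0.88. Without scaling factors the 8 h counts were 30 and 14. CELF1, a binder of GU-rich RNA, was lower at 1 h (-0.40 ± 0.047) and higher at 8 h, with a mean of 1704 CPM in SK-3-91 and 232 CPM in DMSO (2.88 ± 0.048, edgeR adjusted p = 3.5e-37). LUC7L3, a U1-associated protein, stood at 2.75 ± 0.048 and SCAF4 at 2.40 ± 0.038 at 8 h.

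Other spliceosome lists are read against the 41.3% of all genes called higher and 48.1% called lower at 8 h. Genes of the U1, U2, U5 and tri-snRNP particles outside the prefixes gave 14 higher (53.8%) and 10 lower (38.5%) of 26 at 8 h, with SNRNP70 at 1.76 ± 0.047 and the SF3b subunit PHF5A at -2.09 ± 0.057. Genes of the PRPF19, Bact and C complexes gave 19 higher (44.2%) and 20 lower (46.5%) of 43, near the shares of all genes, with GPATCH1 lowest (-3.05 ± 0.13). The exon junction complex gave 2 higher (20%) and 7 lower (70.0%) of 10, with its core helicase EIF4A3 at -1.28 ± 0.042. The minor spliceosome gave 2 higher (28.6%) and 3 lower (42.9%) of 7.

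Other gene groups of RNA metabolism are set beside these for scale, without a test between groups. The shares of all genes at 8 h were 41.3% higher and 48.1% lower. Symbols of ribosomal type (RPL or RPS with a number, a pattern that also takes in S6 kinase genes) gave 68 higher (87.2%) and 7 lower (8.97%) of 78 at 8 h, with a median of 1.25. DEAD-box and DEAH-box helicase genes gave 18 higher (39.1%) and 26 lower (56.5%) of 46, near the shares of all genes (median -0.20). Genes of mRNA 3′ ends and decay gave 17 higher (40.5%) and 25 lower (59.5%) of 42 (median -0.57). The splicing factor median of 0.47 lay between these.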

How the data were processed

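Total RNA of MOLT4 cells was sequenced with the BGISEQ-500 (50-base reads from a single end), per the labels' protocols. The authors' deposited table holds whole-number read counts per gene and library, not normalized, and a column of gene width. The submitters' processing notes name edgeR and hg19. The sources used here do not give the aligner, the counting tool, its strand setting or its annotation. Another table the authors deposited, named for RPKM, holds log2 values that are a straight line in the counts of the same library (largest relative gap 3.9e-07%), so it carries no gene length and was used only as log2 values in an alternative. The table had been filtered before deposit, with a lowest mean count of 32.04, and 0 columns of either table were left unused.

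In R 4.3.3, edgeR 4.0.16 fitted 1 mean per group to the counts of all 24 libraries after TMM scaling. The filterByExpr step removed 0 genes, so all 95 passed. Quasi-likelihood F tests were adjusted by Benjamini-Hochberg within each comparison, with a threshold of 0.05. Depth was 6.863 to 14.626 megareads, and over all genes log2 fold changes had median standard errors of 0.058, 0.062 and 0.067 at 1, 4 and 8 h. Tested on simulated data for SK-3-91 against DMSO at 8 h (9819 genes), the fit recovered 92.4% of changes of 0.5 and 100% of changes of 1 and of 2 on the log2 scale. With 66, 67 and 67 genes changed at these sizes, 4.88% of the called genes were false. All other genes were left unchanged, unlike in the data at 8 h, so the simulation does not test the scaling. Standard errors were derived from the F statistic.

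The members, lists and alternatives were chosen with earlier results of these data known. Genes were named by a rule: up to 2 increases and 2 decreases per prefix and time (adjusted p under 0.05, the higher group averaging 5 CPM or more, groups not overlapping), a fixed set of genes, the 3 largest changes of the response in each direction, and up to 3 genes per other list and time. RBM43, RBM12B, RBM26 and RBM18 and the genes of the assembly plot that fall outside it were chosen after their values were seen. The result of a gene that the rule names is not reported here. Shared sequence (32-base words) and opposite-strand exons come from GENCODE release 29, and genes with 20% or more of either are given as uncertain. Promoters come from RefSeq (GRCh38.p14). Alternatives were RLE, upper-quartile or no scaling factors, no filter, a mean CPM of at least 10, the compared groups only, a minimum fold of 1.5 (glmTreat), a replicate block, each library left out, DESeq2 1.42.0, and limma 3.58.1 (limma-trend) on the deposited log2 values.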

Additional observations from a re-analysis of the deposited data

Results flagged for a closer look

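Among 120 groups of 4 libraries (20 genes, 6 groups each), 6 held a library far from the other 3, and chance gives about 1 in 20 such groups. HNRNPF in replicate 3 of SK-3-91 at 8 h, the shallowest library, had 506 CPM (others 439.8 to 449), and in replicate 3 of DMSO at 1 h 745 CPM (others 772 to 777). In replicate 4 of SK-3-91 at 8 h, SF3B3 had 239 CPM (others 224 to 226) and LSM8 had 56.1 CPM (others 47.2 to 48.6). HNRNPD had 948 CPM in replicate 3 of DMSO at 8 h (others 924 to 926), and U2AF2 had 578 CPM in replicate 4 of DMSO at 4 h (others 544 to 548).

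The response to SK-3-91 differed between times, by a test of the difference itself, in 86 of 95 genes from 1 to 4 h and in 77 from 4 to 8 h (edgeR, adjusted p under 0.05). Over all genes the shares were also high, at 80.4% and 68.6%. The largest upward changes of log2 fold change from 1 to 4 h were those of RBM15 (1.87 ± 0.087), RBM33 (1.77 ± 0.078) and LSM11 (1.28 ± 0.19), and the largest downward ones those of PRPF4 (-2.15 ± 0.069), RBM23 (-1.75 ± 0.064) and LSM10 (-1.75 ± 0.11). From 4 to 8 h the largest upward changes were those of SRSF4 (1.26 ± 0.059), RBM18 (1.26 ± 0.075) and PRPF4B (1.24 ± 0.09), and the largest downward ones those of RBM23 (-1.31 ± 0.088), HNRNPD (-1.17 ± 0.054) and SF3B3 (-1.04 ± 0.052). RBM33 also moved in DMSO alone between these times.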

How the results depend on the processing

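Scaling factors move all genes of a comparison by about 1 constant. Without scaling factors, and likewise with limma-trend on the deposited log2 values, 43 splicing factor genes were called lower at 8 h, the response went up in 40 from 1 to 4 h, and 7 were called higher in DMSO from 4 to 8 h. The median log2 fold changes were then 0.06 (limma-trend 0.06) at 1 h, 0.13 (0.11) at 4 h and 0.04 (0.03) at 8 h. RLE factors gave 0.12, 0.47 and 0.56, upper-quartile factors 0.37 at 4 h and 0.30 at 8 h, and the compared groups alone 0.45 at 4 h and 0.50 at 8 h. RLE factors and DESeq2 both gave 13 genes called lower at 1 h. A minimum fold of 1.5 gave 0 higher and 2 lower at 1 h and 30 and 13 at 4 h. The same minimum gave 24 up and 9 down for the change from 1 to 4 h, 11 and 8 for the change from 4 to 8 h, 0 and 1 in DMSO from 1 to 4 h, and 0 and 0 from 4 to 8 h.

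Leaving out 1 library in turn kept the counts of all splicing factor genes in SK-3-91 against DMSO within 1.5 times, with medians from 0.07 to 0.08 at 1 h. Of the counts by prefix at 1 h, lower SRSF genes numbered 2 without replicate 1 of SK-3-91 (4 with all libraries), lower HNRNP genes 1 without replicate 4 of DMSO (3), and higher LSM genes 3 without replicate 3 of DMSO (6). Genes called higher in DMSO from 4 to 8 h ranged from 6 to 11, against 14 with all libraries, with 6 without replicate 1 of DMSO at 4 h and 9 without replicate 1 or 2 of DMSO at 8 h.

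Prefix medians that changed sign without scaling factors (limma-trend in parentheses) were those of SF3A/SF3B at 4 h, -0.01 (-0.02), and 8 h, -0.09 (-0.08), PRPF at 8 h, -0.28 (-0.26), LSM at 4 h, -0.27 (-0.22), and 8 h, -0.17 (-0.09), and RBM at 4 h, -0.05 (-0.05). With upper-quartile factors PRPF stood at -0.02 at 8 h and LSM at -0.03 at 4 h, and with RLE factors SRSF and PRPF each stood at 0.02 at 1 h and the PRPF19, Bact and C complex list at 0.02 at 8 h. The SR kinase list stood at -0.20 (-0.19) at 4 h and -0.25 (-0.23) at 8 h, and the U1, U2, U5 and tri-snRNP list at -0.05 (-0.05) at 8 h.

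Named genes that changed sign in the same way, with a call in either fit, were at 8 h SRSF9, -0.26 (-0.25), HNRNPU, -0.01 (-0.01), SF3A3, -0.29 (-0.27), PRPF31, -0.28 (-0.26), PRPF38B, -0.42 (-0.40), RBM19, -0.30 (-0.24), HNRNPA1, -0.25 (-0.24), and PRPF8, -0.17 (-0.18). At 4 h they were HNRNPD, -0.12 (-0.12), SF3B2, -0.14 (-0.14), RBM19, -0.06 (-0.05), SF3A1, -0.26 (-0.26), LSM1, -0.26 (-0.21), and RBM25, -0.08 (-0.08). With upper-quartile factors SF3A3 stood at -0.03, PRPF31 at -0.02, PRPF38B at -0.16 and RBM19 at -0.04 at 8 h. PRPF19 at 8 h stood at 0.09 with RLE factors and 0.09 with DESeq2.

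The replicate numbers did not pair the samples: deviations of same-numbered libraries correlated between -0.119 and 0.022, and the fit with the replicate number as a block gave 40 higher and 20 lower at 1 h, 62 and 27 at 4 h, and 59 and 27 at 8 h. The compared groups alone gave counts within 1.5 times of those reported. The fit without a filter was the same as the main one, because the filter had removed 0 genes, so it is no separate check. Depth limits the genes of lowest level: the standard error of a splicing factor gene reached 0.14 against DMSO and 0.19 for a change of the response.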

Other observations

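Genes around the spliceosome that the comparisons above do not describe moved in both directions. At 1 h, when few splicing factor genes had moved by much, MBNL2, a regulator of alternative splicing, had a mean of 12.6 CPM in SK-3-91 and 26.2 CPM in DMSO (-1.05 ± 0.073, edgeR adjusted p = 1.3e-15), and RSRC2 had 60.4 CPM in SK-3-91 and 93.1 CPM in DMSO (-0.62 ± 0.046, edgeR adjusted p = 4.8e-15). COIL, the scaffold of Cajal bodies, where snRNPs mature, had 24.4 CPM in SK-3-91 and 39.9 CPM in DMSO at 1 h (-0.71 ± 0.064, edgeR adjusted p = 1.8e-12). BUD13, of the retention and splicing complex, had 59.1 CPM in SK-3-91 and 93.2 CPM in DMSO at 1 h (-0.66 ± 0.052, edgeR adjusted p = 3.9e-14).

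At 4 h MFAP1, a protein of the B complex, had 11.7 CPM in SK-3-91 and 67.7 CPM in DMSO (-2.54 ± 0.071, edgeR adjusted p = 1.5e-29), and PDCD7, of the minor U11/U12 particle, had 59.3 CPM in SK-3-91 and 122 CPM in DMSO (-1.04 ± 0.044, edgeR adjusted p = 1.0e-23). UBL5, a small ubiquitin-like spliceosome protein, had 106 CPM in SK-3-91 and 42.7 CPM in DMSO at 4 h (1.31 ± 0.066, edgeR adjusted p = 3.3e-21). ZCRB1, of the U11/U12 particle as well, had 134 CPM in SK-3-91 and 75.1 CPM in DMSO at 4 h (0.84 ± 0.056, edgeR adjusted p = 2.4e-17). At 8 h GPKOW had 3.83 CPM in SK-3-91 and 29.7 CPM in DMSO (-2.94 ± 0.13, edgeR adjusted p = 1.8e-23).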
